A study of Drosophila melanogaster with 18 samples.

Results

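Mediator and TFIID are the multiprotein complexes that bring RNA polymerase II to promoters, and the transcripts of their subunits were followed here in Drosophila melanogaster ovaries. The set listed 42 genes, 29 of Mediator and 13 of TFIID. A gene counted as measured where the array annotation gave at least 1 probe set naming that gene alone, and where several sets did so the brightest one, by its mean over the 18 arrays, was used. On this rule 37 of the 42 genes were measured, 26 of Mediator and 11 of TFIID. MED9 and MED23 each lay on 2 probe sets that name several genes, Taf11 lay on 1 such set, and MED22 and Taf2 had no probe set named for them here, so these 5 genes have no value below.

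TFIID recognises the core promoter. Its TATA-binding protein Tbp binds DNA, and the TBP-associated factors, the Tafs, hold the complex together, contact promoter elements and read histone marks. Mediator joins transcription factors to the polymerase through a tail that faces activators, a middle and a head that face the polymerase, the scaffold subunit MED14 that ties them together, and a detachable kinase module that carries Cdk8 and cyclin C. In the ovary the germline and the follicle cells around it make large amounts of maternal and eggshell transcripts with this machinery.

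Total RNA of ovaries was hybridised to Affymetrix Drosophila Genome 2.0 arrays, with 3 biologically independent replicates in each of 6 groups. At 20 °C these were RpII2154/FM7;Marcal1del/del, Marcal1del/del, RpII2154/FM7 and yw, and at 25 °C, which the labels call heat stress, Marcal1del/del and yw. Marcal1del/del females carry the deletion on both copies of Marcal1, whose human counterpart SMARCAL1 is an annealing helicase. RpII2154 is an allele of RpII215, which encodes the largest subunit of RNA polymerase II, and it was carried over the balancer FM7, so these females are heterozygous for it. The control is the yw strain. The sources used here do not say whether the stocks shared a background. The series title asks how genetic and environmental disturbance of gene expression bears on SMARCAL1 mutations.

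The deposited values are RMA log2 intensities, so a difference of 1 is a 2-fold ratio of normalized intensity. Precision is limited by the number of arrays. RMA brings all arrays to 1 distribution, so a shift shared by most transcripts cannot appear. In whole ovaries, fewer cells of a type and less RNA per cell cannot be told apart. The Marcal1 probe set was at 5.41 to 6.19 on the 9 arrays of Marcal1del/del genotypes, against 7.53 to 8.48 on the 9 other arrays. Where its probes lie relative to the deleted part is not given. No probe set named RpII215 alone. The array names form 1 series for the 12 yw and Marcal1del/del arrays and another for the 6 arrays with RpII2154/FM7, so array series and RpII2154/FM7 genotype cannot be told apart.

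The ovary label was met by the germline markers, all 9 of which lay above the array median on all 18 arrays. On marker genes of other stages or tissues, 3 arrays stood apart. The mean of 12 eggshell genes, which late follicle cells express, was 8.65 on RpII2154/FM7 replicate 3, against 13.19 and 13.22 on the other arrays of its group, and it was 10.29 in replicate 1 of yw at 20 °C, where the others were at 12.81 and 12.84. The mean of 14 muscle genes was 7.69 in replicate 1 of yw at 25 °C, where the others were at 5.54 and 5.74. Where the count of members called moves by over 1.5 times without the 3 arrays that stood apart, both values are given. For medians the bound was the pooled SD within groups of the members' median per array, 0.13 for Mediator and 0.11 for TFIID. Medians that moved by less are given with all arrays, even where the ratio was over 1.5. Leaving these 3 arrays out also raised the number of probe sets called, out of 18769. For Marcal1del/del over yw it was 385 in place of 221 at 20 °C and 366 in place of 230 at 25 °C, and for RpII2154/FM7;Marcal1del/del it was 743 in place of 352 over RpII2154/FM7 and 1271 in place of 722 over Marcal1del/del. For the difference of Marcal1del/del effects it was 349 in place of 182, for Marcal1del/del at 25 over 20 °C 64 in place of 38, and for the difference of temperature effects 13 in place of 2. The shares printed below are those with all arrays.

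All 37 measured genes lay above the array median, 4.08 to 4.21, on all 18 arrays. The pooled SD within groups had a median of 0.17 over the 37 genes, and the range of the 6 group means had a median of 0.30. Over the 9200 probe sets that also lay above the median on every array these medians were 0.17 and 0.40, and over all 18769 probe sets they were 0.17 and 0.32. MED6, a head subunit, had the narrowest range of group means, 0.14. Taf7, a TFIID subunit that binds Taf1, had the widest, 1.25. MED15, a tail subunit that activators contact, had the smallest spread between replicates, with a pooled SD of 0.09.

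Only 3 of the 37 genes changed in any of the 9 comparisons at an adjusted p under 0.05 in limma, with Benjamini-Hochberg adjustment over all 18769 probe sets. They were Taf7 in 2 comparisons and MED15 and Taf6 in 1 each, and all 4 changes were rises. None of the 3 genes has another probe set naming it alone.

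**Figure D1:**
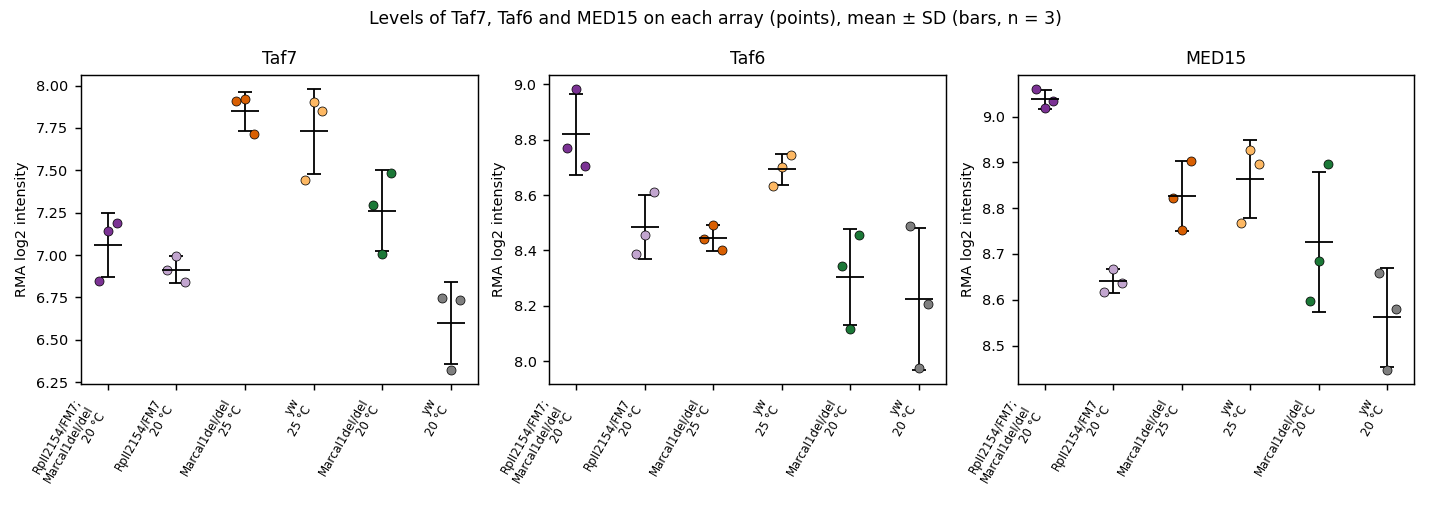
RMA log2 intensity (vertical axes, a separate range for each gene) of Taf7, Taf6 and MED15 on each array, with the 6 groups along the horizontal axis. Points are arrays and bars are the group mean ± SD (n = 3). Taf7 is highest in both groups at 25 °C, and MED15 and Taf6 are highest on average in RpII2154/FM7;Marcal1del/del.

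Taf7 was the gene that differed most across the groups. Its group means, from the highest down, were 7.85 ± 0.12 (SD, n = 3 for each) in Marcal1del/del at 25 °C, 7.73 ± 0.25 in yw at 25 °C, 7.26 ± 0.24 in Marcal1del/del at 20 °C, 7.06 ± 0.19 in RpII2154/FM7;Marcal1del/del, 6.91 ± 0.08 in RpII2154/FM7 and 6.60 ± 0.24 in yw at 20 °C. The arrays of the 2 groups at 25 °C overlapped, as did those of RpII2154/FM7;Marcal1del/del and Marcal1del/del at 20 °C and those of RpII2154/FM7;Marcal1del/del and RpII2154/FM7. The arrays of this last pair were at 6.85, 7.14 and 7.19 for RpII2154/FM7;Marcal1del/del, against 6.91, 6.99 and 6.84 for RpII2154/FM7. RpII2154/FM7 and yw at 20 °C did not overlap, but the difference was not called (0.31 ± 0.15, SE, adjusted p = 0.312 in limma).

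The first question is what loss of Marcal1 did in otherwise wild-type polymerase at 20 °C. Taf7 rose, by 1.58-fold. Its level was 7.30, 7.01 and 7.48 in Marcal1del/del, against 6.75, 6.32 and 6.73 in yw. All 3 Marcal1del/del arrays were above all 3 yw arrays. The difference was 0.66 ± 0.15 (SE, adjusted p = 0.0486 in limma). Taf7 was the only 1 of 37 genes called, beside 1.18% of all probe sets, and the only 1 with an unadjusted p under 0.05, beside 7.65%. The 2 groups failed to overlap for Taf7, which was higher, and for Taf4, a Taf that pairs with Taf12 through histone folds and was lower by 0.17 (not called), beside 6.14% and 5.9% of all probe sets for the 2 directions. The median change was 0.01 over the 26 Mediator genes and 0.00 over the 11 TFIID genes, with 0.01 over all probe sets. On leaving out 1 array in turn it was -0.10 to 0.14 over Mediator and -0.058 to 0.15 over TFIID. Both were highest without yw replicate 1, an array that stood apart. Without the 3 arrays that stood apart the TFIID median was 0.15. The 95% interval lay within a 1.5-fold change in either direction for 35 of the 37 genes.

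The Taf7 call at 20 °C was close to its threshold. It was lost on leaving out any 1 of the 6 arrays other than Marcal1del/del replicate 2, with adjusted p between 0.0505 and 0.274 and differences of 0.52 to 0.74, and without that replicate the difference was 0.79 (adjusted p = 0.0315). In a fit to the 6 arrays compared alone it was not called either (adjusted p = 0.233). All 12 eggshell genes were higher in Marcal1del/del, with a median difference of 1.03, and their mean ranged from 12.63 to 13.36, against 10.29 to 12.84 in yw. The muscle mean was 5.63 to 5.90 in Marcal1del/del, against 5.91 to 6.40 in yw, with 3 of 14 genes higher and a median difference of -0.37, and TpnC4 fell by 1.70 (adjusted p = 0.00974 in limma). The part of muscle was not tested. With the eggshell mean as a covariate, an alternative chosen after seeing the data, the Taf7 difference was 0.67 (adjusted p = 0.0788).

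At 25 °C no gene of the set was called between Marcal1del/del and yw in limma, beside 1.23% of all probe sets. At an unadjusted p under 0.05 there was 1 gene, beside 8.5% of all probe sets. This was MED7, which forms the hinge of the middle module with MED21. MED7 was at 8.79, 8.97 and 8.91 in Marcal1del/del, against 9.27, 9.43 and 9.28 in yw. The arrays did not overlap, and the difference was -0.43 ± 0.17 (SE, adjusted p = 0.428 in limma). At 20 °C it was at 9.02, 8.42 and 8.77 in Marcal1del/del, against 9.40, 8.81 and 8.95 in yw, with overlap, and at 9.14, 8.74 and 8.86 in RpII2154/FM7;Marcal1del/del, against 8.37, 8.77 and 8.81 with RpII2154/FM7 alone. Taf6, which pairs with Taf9 through histone folds, was at 8.44, 8.49 and 8.40 in Marcal1del/del, against 8.63, 8.70 and 8.74 in yw. These groups did not overlap either, and the difference was -0.25 ± 0.12 (SE, adjusted p = 0.64 in limma). MED7 and Taf6 were the 2 genes lower without overlap, beside 7.85% of all probe sets, and 0 were higher without overlap, beside 7.98%. Of the 37 genes 9 had a positive difference, against 46.8% of all probe sets. The median was -0.07 over Mediator and -0.03 over TFIID, with -0.01 over all probe sets. All 12 eggshell genes were higher in Marcal1del/del, all without overlap, with a median difference of 1.66 and a mean level of 13.02 to 13.27, against 11.04 to 11.89 in yw. Of 5 genes of follicle cells and yolk 4 were higher, also without overlap. Of 11 hemocyte genes 4 were higher, and srp among them was called, at 2.00 ± 0.41 (SE, adjusted p = 0.0208 in limma). The part of these cells was not tested.

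In the RpII2154/FM7 background the loss of Marcal1 went with higher MED15. MED15 was at 9.06, 9.02 and 9.03 in RpII2154/FM7;Marcal1del/del ovaries, against 8.62, 8.67 and 8.64 in RpII2154/FM7. The replicates lay close together, with SDs of 0.02 and 0.03, and the groups did not overlap. On the other arrays MED15 was at 8.82, 8.75 and 8.90 in Marcal1del/del and 8.77, 8.93 and 8.90 in yw at 25 °C, and at 8.60, 8.68 and 8.90 in Marcal1del/del and 8.66, 8.45 and 8.58 in yw at 20 °C. MED15 rose 1.32-fold, by 0.40 ± 0.09 (SE, adjusted p = 0.035 in limma). It was the only 1 of 37 genes called, beside 1.88% of all probe sets. Leaving out any 1 of the 6 arrays ended the call, with differences of 0.39 to 0.41 and adjusted p between 0.0589 and 0.108, as did a fit to these 6 arrays alone (adjusted p = 0.115). Without the 3 arrays that stood apart the difference was 0.40 (adjusted p = 0.0498).

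Most other members were also higher in RpII2154/FM7;Marcal1del/del, though not called. The difference was positive for 32 of the 37 genes, against 54.6% of all probe sets. Its median was 0.18 over Mediator and 0.12 over TFIID, with 0.02 over all probe sets. On leaving out 1 array in turn the TFIID median was 0.031 to 0.15, lowest without RpII2154/FM7;Marcal1del/del replicate 2 and next lowest, 0.056, without RpII2154/FM7 replicate 1. The groups did not overlap for 13 genes, all higher, beside 13.5% of all probe sets and 20.5% of the probe sets above every array median. Going by role, these 13 were the head subunits MED8, MED11, MED17 and MED20, the middle subunits MED1, MED19, MED21 and MED31, the tail subunits MED15 and MED16, the kinase Cdk8, and the TFIID subunits Taf5 and Taf6. Lower without overlap were 0 genes, beside 8.92%. At an unadjusted p under 0.05 there were 9 genes, all higher, beside 18.6% of all probe sets.

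All 8 middle and all 7 tail subunits had a positive difference. The middle ranged from 0.08 to 0.55, with MED4 at 0.55 ± 0.19 (SE, adjusted p = 0.145) and MED1, which nuclear receptors contact in mammals, at 0.36 ± 0.13 (SE, adjusted p = 0.153 in limma). The tail ranged from 0.01 for MED30 to 0.50 ± 0.17 for MED16 (SE, adjusted p = 0.133 in limma). In the head, MED17 and MED20 were at 0.44 and 0.46, while MED6 was at -0.04 and MED18 at 0.00. The 5 negative differences were those of MED6, MED14, Taf1, Taf4 and Taf10, none under -0.15.

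Other tissues differed between the same groups. Of 14 muscle genes 1 was higher in RpII2154/FM7;Marcal1del/del, with a median difference of -1.32 and a mean level of 5.54 to 6.41, against 6.62 to 7.32 in RpII2154/FM7. Act79B and TpnC41C were below the array median on all 18 arrays. Of 11 hemocyte genes 0 were higher, with a median of -0.56 and a mean level of 5.71 to 6.04, against 6.13 to 6.61. In that list eater and He were below the median on all arrays. Of 5 genes of follicle cells and yolk 0 were higher, with a median of -0.72 and a mean level of 8.94 to 9.25, against 9.25 to 10.17 without overlap. Of 12 eggshell genes 2 were higher, with a median of -0.62 and a mean level of 10.67 to 11.70, against 8.65 to 13.22. The part of these tissues in the members' differences was not tested.

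**Figure D2:**
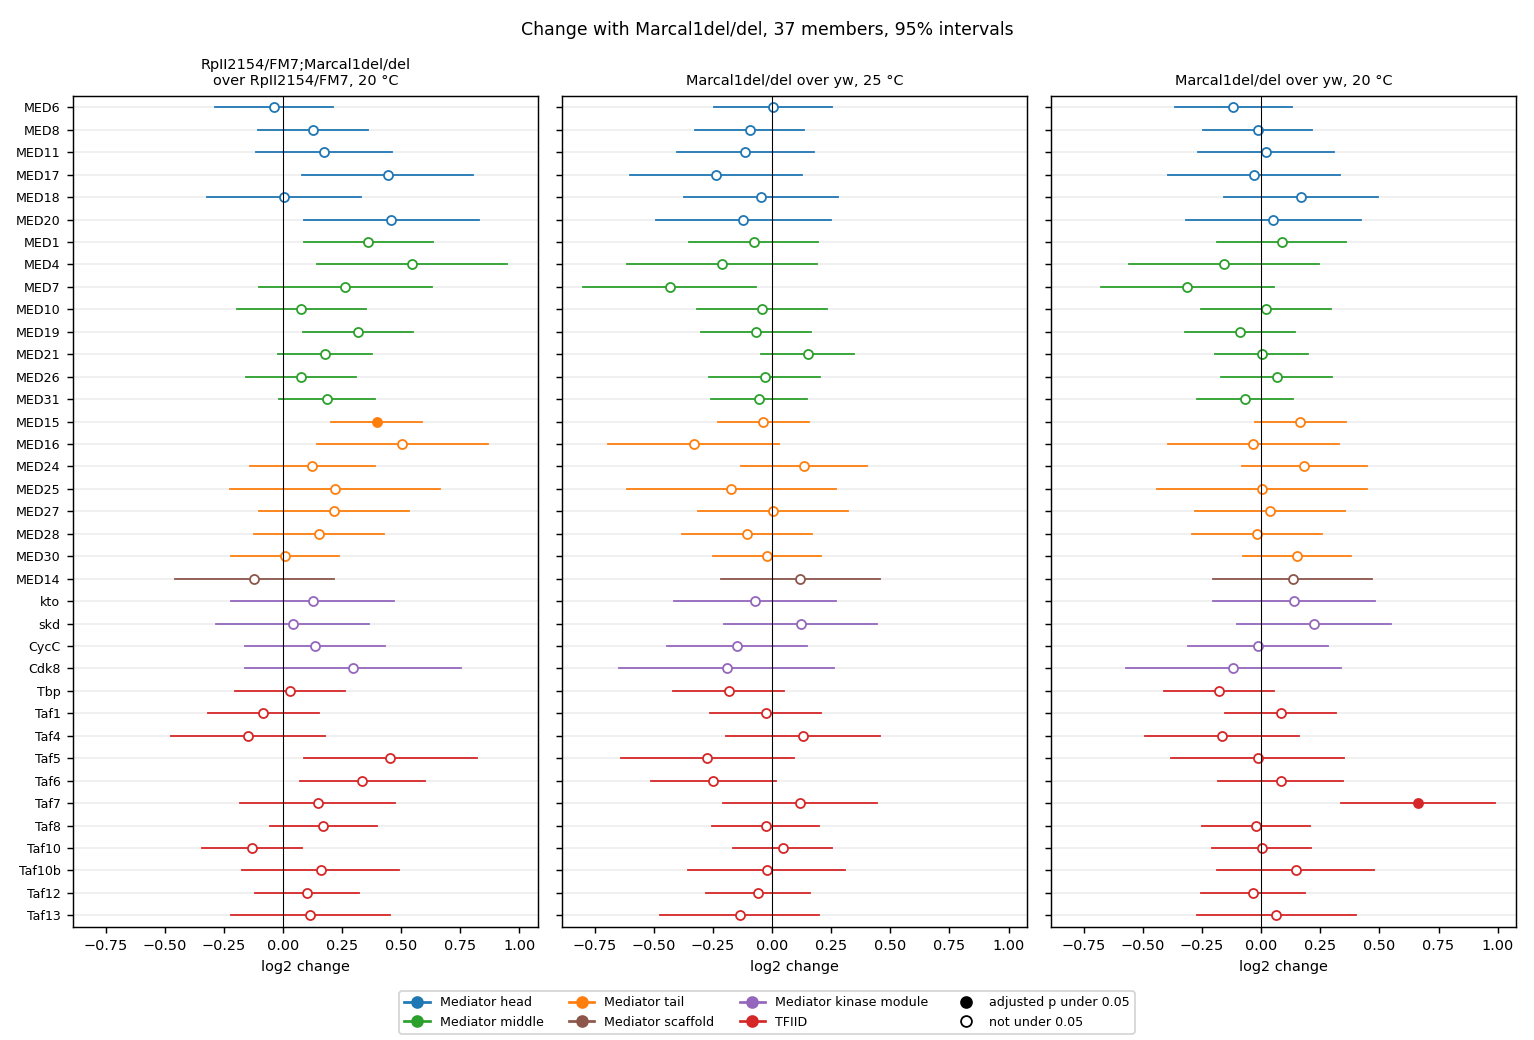
Log2 change with Marcal1del/del (horizontal axis, the same in each panel) of the 37 measured genes (vertical axis, coloured by module), in RpII2154/FM7 at 20 °C, in yw at 25 °C and in yw at 20 °C. Points are limma estimates, lines are 95% intervals, and filled points have an adjusted p under 0.05, which are MED15 in the left panel and Taf7 in the right panel. In the left panel 32 of 37 points lie right of 0, in the middle panel 9 and in the right panel 21. Of all probe sets 54.6%, 46.8% and 52% were positive in these comparisons.

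Whether the Marcal1del/del effect depended on RpII2154/FM7 was then tested directly, as the effect with it minus the effect without it. No gene of the set was called in limma, beside 0.97% of all probe sets, and 5 had an unadjusted p under 0.05, beside 10.7%. The lowest p belonged to MED19, a middle subunit that Hox proteins contact in the fly. MED19 was at 9.43, 9.58 and 9.51 in RpII2154/FM7;Marcal1del/del and 9.15, 9.16 and 9.25 in RpII2154/FM7. At 25 °C it was at 9.48, 9.44 and 9.57 in Marcal1del/del and 9.30, 9.66 and 9.72 in yw, and without RpII2154/FM7 at 20 °C at 9.35, 9.24 and 9.42 in Marcal1del/del and 9.58, 9.30 and 9.39 in yw. The arrays separated only between the first of these pairs of groups, and the difference of effects was 0.41 ± 0.15 (SE, adjusted p = 0.321 in limma).

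MED4, which holds MED9 in the middle module, came next. It was at 8.80, 8.21 and 8.44 in RpII2154/FM7;Marcal1del/del and 7.56, 8.22 and 8.03 in RpII2154/FM7, and at 8.55, 8.03 and 8.36 in Marcal1del/del and 8.46, 8.60 and 8.34 in yw. At 25 °C it was at 8.30, 7.96 and 8.16 in Marcal1del/del and 8.15, 8.63 and 8.27 in yw. All 3 pairs of groups overlapped, and the difference of effects was 0.70 ± 0.27 (SE, adjusted p = 0.323 in limma). Taf7 ran the other way. Its Marcal1del/del effect was 0.15 ± 0.15 (SE) with RpII2154/FM7 and 0.66 ± 0.15 without it, and the difference of -0.52 ± 0.22 (SE) was not called (adjusted p = 0.386 in limma). For MED15 the difference of effects was 0.23 ± 0.13 (SE, adjusted p = 0.563 in limma), so neither call was shown to be particular to its polymerase background. The precision was lower here, with 33 of 37 intervals within a 2-fold difference.

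The next pair of comparisons asks what the RpII2154/FM7 genotype did, without and with Marcal1del/del. Without it, no gene of the set was called between RpII2154/FM7 and yw in limma, beside 2.76% of all probe sets, while 3 higher and 5 lower genes had an unadjusted p under 0.05, beside 17.2%. Tbp was at 9.03, 8.83 and 9.07 in RpII2154/FM7, against 9.29, 9.32 and 9.48 in yw. The arrays did not overlap, and the difference was -0.39 ± 0.11 (SE, adjusted p = 0.0751 in limma). With probe sets of low signal left out before the adjustment it was called (adjusted p = 0.0448).

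MED14, the scaffold, was at 9.60, 9.27 and 9.54 in RpII2154/FM7, against 8.97, 8.75 and 9.05 in yw. In RpII2154/FM7;Marcal1del/del it was at 8.98, 9.64 and 9.42. RpII2154/FM7 and yw did not overlap, and the difference was 0.55 ± 0.16 (SE, adjusted p = 0.0787 in limma). Higher without overlap were MED14, MED18, Taf7 and Taf10, beside 9.61% of all probe sets, and lower without overlap were MED4, MED19 and Tbp, beside 9.97%. MED18, a head subunit that pairs with MED20 and lies on the X chromosome, had a difference of 0.42 ± 0.15 (SE, adjusted p = 0.166), which without yw replicate 1 was 0.57 (adjusted p = 0.0479 in limma). The median was -0.02 over Mediator and 0.13 over TFIID, with 0.00 over all probe sets. Without the 3 arrays that stood apart the TFIID median was 0.26. Of 14 muscle genes 13 were higher in RpII2154/FM7, with a mean level of 6.62 to 7.32, against 5.91 to 6.40 in yw, and of 11 hemocyte genes 9 were higher, with 6.13 to 6.61, against 5.87 to 6.12. The 3′ minus 5′ difference of the control probe sets, which grows as RNA degrades, was 1.26 to 1.56 for actin in RpII2154/FM7, against 0.90 to 1.04 in yw, and 1.32 to 1.59 for GAPDH, against 1.12 to 1.21. None of these 4 measures overlapped between the groups, and their part was not tested. Of 9 germline genes 6 were higher in RpII2154/FM7. Among them aub was called at 0.74 ± 0.08 (SE, adjusted p = 9.14e-05 in limma), while stau was called lower, at -0.69 ± 0.15 (SE, adjusted p = 0.0185). The gene aub was also called higher for RpII2154/FM7;Marcal1del/del over Marcal1del/del (0.44) and for 25 over 20 °C in Marcal1del/del (0.62) and yw (0.55). The part of the germline was not tested.

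In flies without Marcal1, Taf6 was higher with RpII2154/FM7. Taf6 was at 8.77, 8.98 and 8.70 in RpII2154/FM7;Marcal1del/del, against 8.34, 8.12 and 8.46 in Marcal1del/del. The arrays did not overlap. At 20 °C Taf6 was also at 8.39, 8.46 and 8.61 in RpII2154/FM7, against 8.49, 7.98 and 8.21 in yw, which overlapped. Taf6 rose 1.43-fold, by 0.51 ± 0.12 (SE, adjusted p = 0.0316 in limma), and it was the only 1 of 37 genes called, beside 3.85% of all probe sets. At an unadjusted p under 0.05 there were 5 genes, all higher, beside 20%. Just beyond the threshold lay Taf5, the WD40-repeat subunit of the TFIID core, at 0.62 ± 0.17 (adjusted p = 0.0566), MED15 at 0.31 ± 0.09 (adjusted p = 0.067) and MED17, the main head subunit, at 0.56 ± 0.17 (SE, adjusted p = 0.0818 in limma). The difference was positive for 31 of the 37 genes, against 54.5% of all probe sets. Its median was 0.18 over Mediator and 0.08 over TFIID, with 0.02 over all probe sets. On leaving out 1 array in turn the TFIID median was 0.0041 to 0.12, lowest without RpII2154/FM7;Marcal1del/del replicate 2 and next lowest, 0.031, without Marcal1del/del replicate 2.

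The groups did not overlap for 11 genes, all higher, beside 14.2% of all probe sets and 18.7% of those above every array median. They were MED17, MED18 and MED20 of the head, MED10, MED19 and MED31 of the middle, MED15 and MED16 of the tail, Cdk8, Taf5 and Taf6. Lower without overlap were 0 genes, beside 11%. This comparison and that of RpII2154/FM7;Marcal1del/del with RpII2154/FM7 share the RpII2154/FM7;Marcal1del/del arrays. For Taf6 the 2 differences were 0.51 and 0.33, for Taf5 0.62 and 0.45, and for MED15 0.31 and 0.40.

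The count of calls moved with single arrays. Leaving out any array other than Marcal1del/del replicate 3 or RpII2154/FM7;Marcal1del/del replicate 3 ended the Taf6 call, with adjusted p between 0.0669 and 0.149 and differences of 0.42 to 0.54, as did a fit to these 6 arrays alone (adjusted p = 0.0915). Without Marcal1del/del replicate 3 there were 3 calls, Taf6, Taf5 and MED15, and without RpII2154/FM7;Marcal1del/del replicate 3 Taf6 was at 0.57 (adjusted p = 0.0451). Without the 3 arrays that stood apart, none of which is in these groups, the calls were Taf6, Taf5 and MED17. The count over all probe sets was then 1271 in place of 722, and it was not taken without single arrays. All 12 eggshell genes were lower in RpII2154/FM7;Marcal1del/del, with a median of -1.91 and a mean level of 10.67 to 11.70, against 12.63 to 13.36 in Marcal1del/del. Of 5 genes of follicle cells and yolk 0 were higher and 4 were lower without overlap, with a median of -0.71. Of 11 hemocyte genes 6 were higher, while srp was called lower, at -1.97 ± 0.41 (SE, adjusted p = 0.0132 in limma). The part of these cells was not tested. With the eggshell mean as a covariate, chosen after seeing the data, the Taf6 difference was 0.39 (adjusted p = 0.164). That fit called 317 of all probe sets in place of 722. The 3′ minus 5′ difference of the actin controls averaged 1.70 in RpII2154/FM7;Marcal1del/del (SD 0.29, n = 3) and 1.05 in Marcal1del/del (SD 0.15, n = 3), and its part was not tested.

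**Figure D3:**
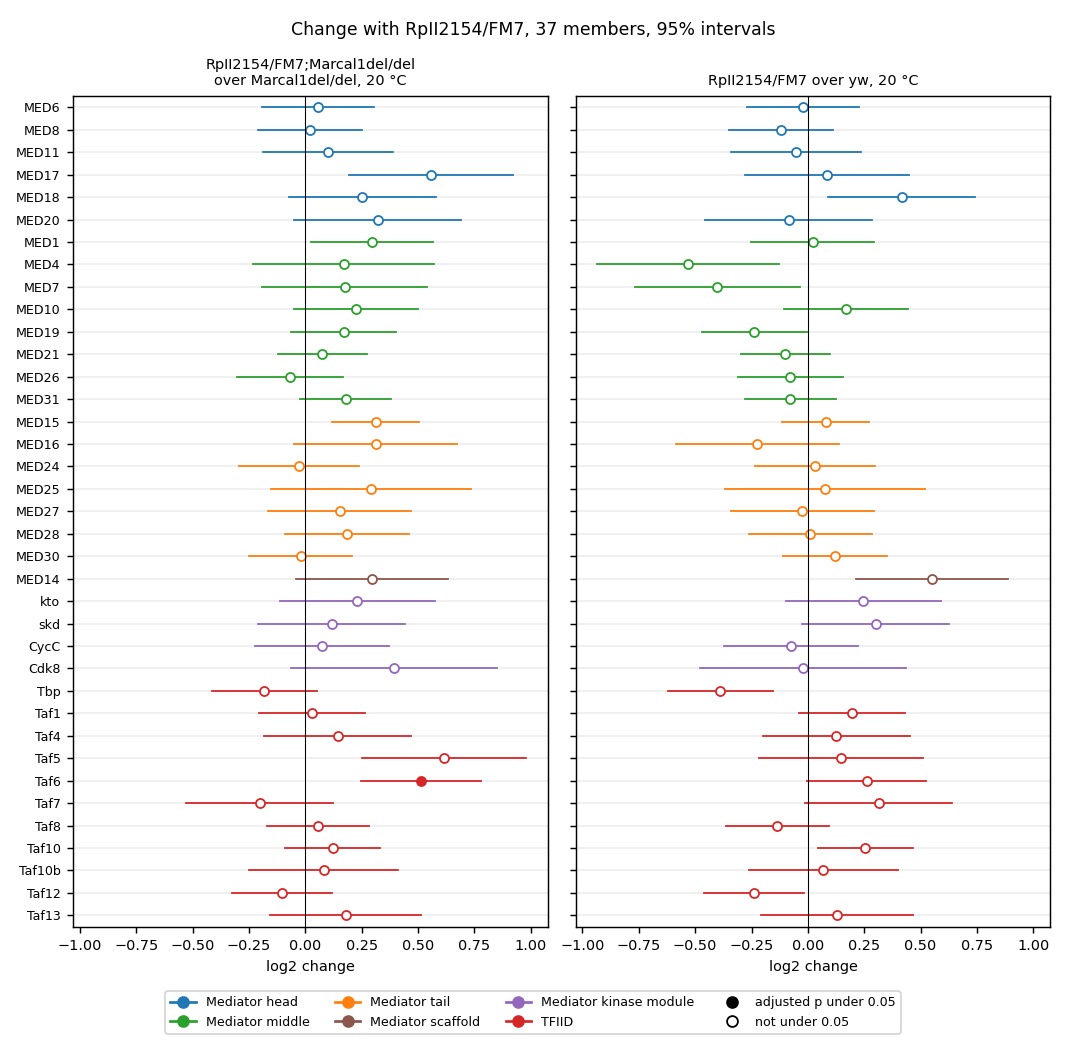
Log2 change with RpII2154/FM7 (horizontal axis, the same in both panels) of the 37 measured genes (vertical axis, coloured by module) at 20 °C, in Marcal1del/del and in yw. Points are limma estimates, lines are 95% intervals, and filled points have an adjusted p under 0.05. Taf6 in the left panel is the only filled point, and 31 points lie right of 0 there, against 20 in the right panel. Of all probe sets 54.5% and 49.6% were positive in these comparisons.

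The last question is that of temperature. In yw, Taf7 more than doubled at 25 °C. It was at 7.44, 7.90 and 7.85 in yw at 25 °C, against 6.75, 6.32 and 6.73 in yw at 20 °C. All arrays at 25 °C were above all at 20 °C. Taf7 rose 2.19-fold, by 1.13 ± 0.15 (SE, adjusted p = 0.00331 in limma), and was the only 1 of 37 genes called, beside 0.256% of all probe sets. At an unadjusted p under 0.05 there were 7 genes, all higher, beside 7.43%. Taf7 was called on leaving out each of the 6 arrays in turn, with differences of 0.99 to 1.27 and adjusted p between 0.000995 and 0.0297. In a fit to the 6 arrays compared alone it was not called (adjusted p = 0.147).

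Next in order of p were Taf6 at 0.47 ± 0.12 (adjusted p = 0.178) and MED15 at 0.30 ± 0.09 (SE, adjusted p = 0.29 in limma). Taf7, Taf6, MED15, MED14 and, narrowly, kto were higher without overlap, beside 6.09% of all probe sets, and 0 genes were lower without overlap, beside 4.95%. The difference was positive for 30 of the 37 genes, against 55.5% of all probe sets, with a median of 0.21 over Mediator and 0.12 over TFIID, and 0.02 over all probe sets. Without the 3 arrays that stood apart the Mediator median was 0.40 and 5 genes were called, Taf7, Taf6, MED1, MED20 and Cdk8, where the count over all probe sets was 788 in place of 48. Leaving out yw replicate 2 at 20 °C alone gave a Mediator median of 0.08. All 12 eggshell genes were lower at 25 °C, with a median of -0.30 and a mean level of 11.04 to 11.89, against 10.29 to 12.84. With the eggshell mean as a covariate, chosen after seeing the data, Taf7 differed by 1.13 (adjusted p = 0.00504 in limma). The part of the eggshell genes was not tested.

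In Marcal1del/del no gene of the set was called between 25 and 20 °C in limma, beside 0.202% of all probe sets, and 3 had an unadjusted p under 0.05, beside 4.25%. Taf7 again had the lowest p, with 7.91, 7.92 and 7.72 at 25 °C, against 7.30, 7.01 and 7.48 at 20 °C. The arrays did not overlap, and the difference was 0.59 ± 0.15 (SE, adjusted p = 0.273 in limma). MED14 was at 9.46, 9.36 and 9.41 at 25 °C, against 8.77, 9.11 and 9.28 at 20 °C, where yw had 9.20, 9.26 and 9.42 at 25 °C. It gave a difference of 0.36 ± 0.16 (SE, adjusted p = 1 in limma) without overlap. MED14, MED19, MED21, Taf4 and Taf7 were higher without overlap, beside 5.15% of all probe sets, and MED30 was lower, beside 4.99%. The median was 0.07 over Mediator and 0.07 over TFIID, with 0.00 over all probe sets. Of 14 muscle genes 12 were higher at 25 °C, with a median of 0.17. Their mean level was 5.15 to 6.93, against 5.63 to 5.90 at 20 °C, and their part was not tested.

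The difference between these temperature effects was tested too, and no gene of the set was called in limma, beside 0.0107% of all probe sets. Taf7 was the 1 gene with an unadjusted p under 0.05, beside 1.57%, at -0.55 ± 0.22 (SE, adjusted p = 1 in limma). Taf6 followed at -0.33 ± 0.18 (SE, adjusted p = 1), with temperature effects of 0.14 in Marcal1del/del and 0.47 in yw. A smaller Taf7 effect in Marcal1del/del was thus not established. The median was -0.10 over Mediator and -0.11 over TFIID, with -0.02 over all probe sets. Without the 3 arrays that stood apart the Mediator median was -0.30.

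**Figure D4:**
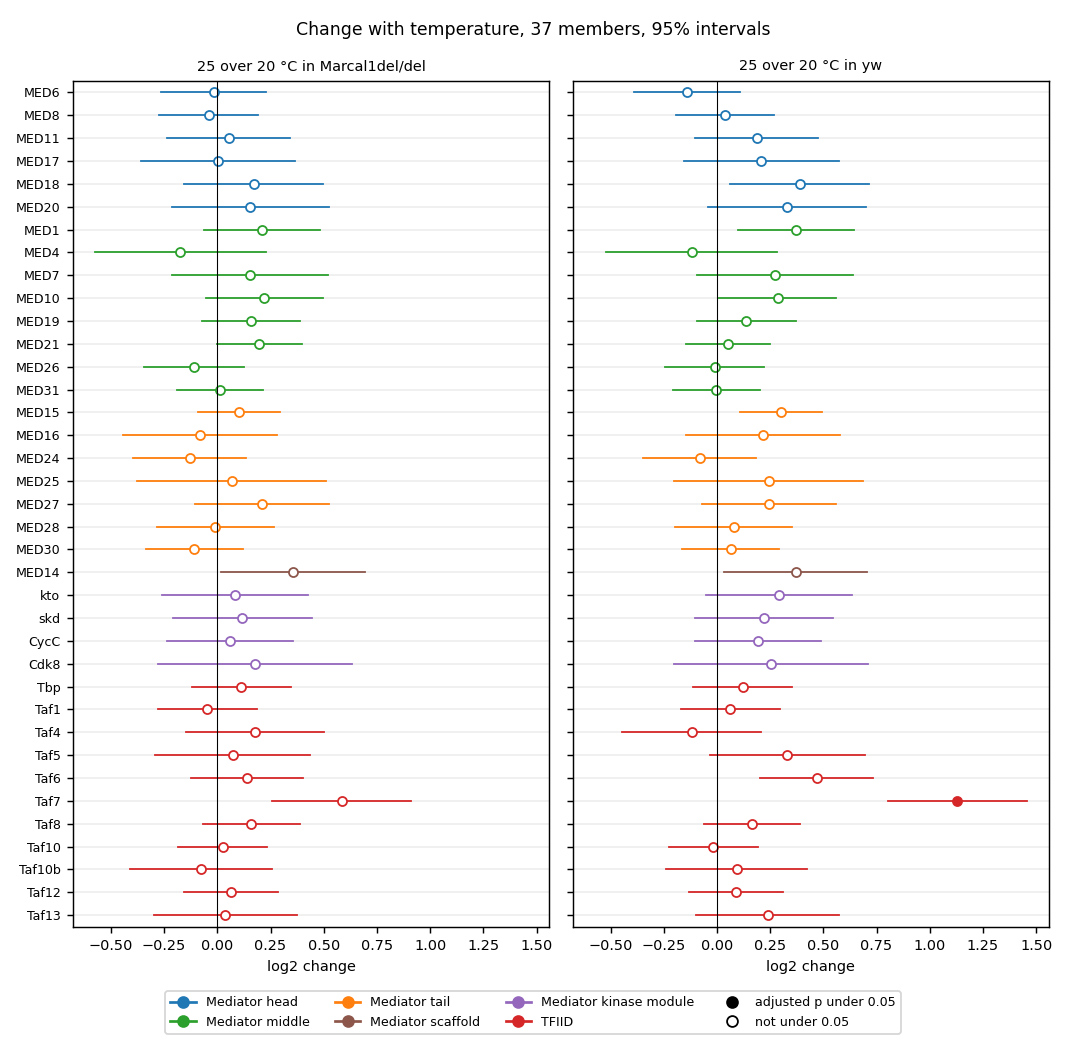
Log2 change at 25 °C over 20 °C (horizontal axis, the same in both panels) of the 37 measured genes (vertical axis, coloured by module), in Marcal1del/del and in yw. Points are limma estimates, lines are 95% intervals, and the filled point has an adjusted p under 0.05. Taf7 is the farthest to the right in both panels, at 0.59 in Marcal1del/del and 1.13 in yw, where alone it is filled.

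The kinase module, which can bind Mediator and block its contact with the polymerase, gave no call in any of the 9 comparisons, and the lowest adjusted p of its 4 genes was 0.323 in limma. Cdk8, its kinase, was at 7.90, 7.91 and 7.91 in RpII2154/FM7;Marcal1del/del, 7.50, 7.46 and 7.86 in RpII2154/FM7, 7.73, 7.53 and 7.80 in Marcal1del/del at 25 °C, 7.57, 7.98 and 8.10 in yw at 25 °C, 7.39, 7.33 and 7.81 in Marcal1del/del at 20 °C, and 8.19, 7.11 and 7.59 in yw at 20 °C. The replicates of yw at 20 °C were the most scattered, with an SD of 0.54. Cdk8 had the largest pooled SD within groups of the 37 genes, 0.29.

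CycC, the cyclin partner of Cdk8, was at 9.01, 8.72 and 8.76 in RpII2154/FM7;Marcal1del/del, 8.42, 8.81 and 8.87 in RpII2154/FM7, 8.76, 8.89 and 8.79 in Marcal1del/del at 25 °C, 8.80, 9.14 and 8.95 in yw at 25 °C, 8.79, 8.67 and 8.81 in Marcal1del/del at 20 °C, and 9.03, 8.56 and 8.72 in yw at 20 °C. These groups overlapped in all 7 comparisons of 2 groups. Its group means spanned 0.27.

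The other 2 subunits of the module are large. kto, the fly Med12 that activates the kinase, was at 7.68, 7.88 and 7.62 in RpII2154/FM7;Marcal1del/del, 7.73, 7.36 and 7.72 in RpII2154/FM7, 7.80, 7.44 and 7.50 in Marcal1del/del at 25 °C, 7.65, 7.56 and 7.74 in yw at 25 °C, 7.24, 7.60 and 7.66 in Marcal1del/del at 20 °C, and 7.56, 6.99 and 7.53 in yw at 20 °C. Its groups separated only for yw at 25 °C over yw at 20 °C, and narrowly, with a lowest array of 7.565 at 25 °C and a highest of 7.556 at 20 °C. The difference of means was 0.29 ± 0.16 (SE, adjusted p = 0.754 in limma).

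skd, the fly Med13 that links the module to Mediator, was at 8.41, 8.84 and 8.55 in RpII2154/FM7;Marcal1del/del, 8.60, 8.36 and 8.73 in RpII2154/FM7, 8.50, 8.50 and 8.80 in Marcal1del/del at 25 °C, 8.19, 8.67 and 8.59 in yw at 25 °C, 8.33, 8.51 and 8.62 in Marcal1del/del at 20 °C, and 8.44, 8.09 and 8.25 in yw at 20 °C. A second probe set names skd alone. For Marcal1del/del over yw at 20 °C the sets had opposite signs, 0.22 ± 0.15 and -0.24 ± 0.18 (SE), and neither was called in any comparison. Taf4 also has a second set, which had the opposite sign for RpII2154/FM7 over yw, -0.26 ± 0.11 beside 0.13 ± 0.15 (SE), again with no call.

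In TFIID, Taf1 is the largest subunit and the one Taf7 binds. Taf1 was at 8.61, 8.71 and 8.65 in RpII2154/FM7;Marcal1del/del, 8.84, 8.58 and 8.80 in RpII2154/FM7, 8.64, 8.50 and 8.60 in Marcal1del/del at 25 °C, 8.57, 8.60 and 8.65 in yw at 25 °C, 8.44, 8.63 and 8.82 in Marcal1del/del at 20 °C, and 8.73, 8.38 and 8.52 in yw at 20 °C. Its group means spanned 0.19, beside 1.25 for Taf7, and it was not called in any comparison. For yw at 25 °C over 20 °C the 2 partners differed by 0.06 ± 0.11 for Taf1 and 1.13 ± 0.15 for Taf7 (SE).

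Tbp was lowest in both groups with RpII2154/FM7. Beside the arrays given above, it was at 9.06, 9.05 and 8.90 in RpII2154/FM7;Marcal1del/del, 9.41, 9.21 and 9.27 in Marcal1del/del at 25 °C, 9.30, 9.53 and 9.62 in yw at 25 °C, and 9.04, 9.20 and 9.32 in Marcal1del/del at 20 °C. RpII2154/FM7;Marcal1del/del and Marcal1del/del overlapped at 20 °C, and their difference was -0.18 ± 0.11 (SE) with no call.

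Taf10 and Taf10b are paralogues that encode the Taf10 subunit and lie next to each other in the gene order of chromosome arm 2L. Taf10 was at 8.48, 8.65 and 8.42 in RpII2154/FM7;Marcal1del/del, 8.76, 8.70 and 8.49 in RpII2154/FM7, 8.35, 8.55 and 8.36 in Marcal1del/del at 25 °C, 8.28, 8.34 and 8.51 in yw at 25 °C, 8.36, 8.34 and 8.48 in Marcal1del/del at 20 °C, and 8.43, 8.36 and 8.39 in yw at 20 °C. Its arrays separated only for RpII2154/FM7 over yw, by 0.25 ± 0.10 (SE, adjusted p = 0.187 in limma).

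Taf10b was at 9.57, 9.27 and 9.34 in RpII2154/FM7;Marcal1del/del, 8.85, 9.51 and 9.34 in RpII2154/FM7, 9.16, 9.31 and 9.23 in Marcal1del/del at 25 °C, 9.19, 9.41 and 9.16 in yw at 25 °C, 9.52, 9.11 and 9.29 in Marcal1del/del at 20 °C, and 9.38, 9.07 and 9.04 in yw at 20 °C. Its groups overlapped in all 7 comparisons of 2 groups. For RpII2154/FM7 over yw it differed by 0.07 ± 0.16 (SE), beside the 0.25 of Taf10. Whether the paralogues differ was not tested.

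Ranges of group means follow for 9 more members, beside a median range of 0.30 over all 37 genes. Among them the group means of MED10, MED26, MED24, MED25, MED27 and MED28 of Mediator spanned 0.14 to 0.29, with MED26, which recruits elongation factors in human cells, at 0.14. In TFIID the histone-fold subunits Taf8, which pairs with Taf10, Taf12, which pairs with Taf4, and Taf13, which pairs with Taf11, spanned 0.30, 0.33 and 0.24. None of these 9 genes was called in any comparison. The measured members lie on all major arms, with 14 on 3L, 11 on 3R, 5 on 2L, 4 on 2R, 2 on X and 1 on chromosome 4, and the X-linked pair are MED18 and Taf8.

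Related factors were counted in the same fit. Of 18 general factors of the preinitiation complex, such as TFIIA, TFIIB, TFIIE, TFIIF and TFIIH, 17 were measured and 0 were called in any comparison in limma, while at an unadjusted p under 0.05 the comparison of RpII2154/FM7;Marcal1del/del with RpII2154/FM7 had 5, all higher, beside 18.6% of all probe sets. Of 25 genes of SAGA, ATAC and NC2, coactivators and a repressor that share subunits or Tbp with TFIID, 20 were measured. In RpII2154/FM7;Marcal1del/del over RpII2154/FM7, 18 of the 20 were positive with a median of 0.24, where 54.6% of all probe sets were positive and 1.88% called, and Spt20, a structural subunit of SAGA, rose by 0.55 ± 0.13 (SE, adjusted p = 0.0378 in limma). In RpII2154/FM7;Marcal1del/del over Marcal1del/del the count was 18 of 20 with a median of 0.23, where 54.5% of all probe sets were positive and 3.85% called, and Atac2, an acetyltransferase of ATAC, rose by 0.37 ± 0.10 (adjusted p = 0.0399) and wds, the fly WDR5, by 0.50 ± 0.11 (SE, adjusted p = 0.0202 in limma).

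Of 12 subunits of RNA polymerase II 6 were measured. The Rpb5 subunit, annotated as Polr2E, was at 10.82 on average in RpII2154/FM7;Marcal1del/del and 10.25 in Marcal1del/del, a rise of 0.57 ± 0.15 (SE, adjusted p = 0.0489 in limma), as the 1 call among the 6 beside 3.85% of all probe sets. Of 9 relatives or further subunits of TFIID all were measured. The testis Tafs Taf12L, nht, can and sa were below the array median on all 18 arrays. The testis paralogue of Taf6, mia, was above it on 17 and fell to 4.41 in RpII2154/FM7;Marcal1del/del ovaries, against 5.21 in RpII2154/FM7 (-0.80 ± 0.20, SE, adjusted p = 0.0483 in limma). The genes e(y)1 and bip2 encode the fly Taf9 and Taf3, which are TFIID subunits that the set followed here does not list. Like the relatives Trf and Trf2, they were above the median on all arrays and were not called.

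The median level of the members was also set against the marker genes across arrays. Each gene was centred on its mean over 18 arrays and the median taken per array. Over the 18 arrays the Mediator median and the eggshell mean had a Pearson r of -0.47 and a Spearman rho of -0.56, and r was -0.62 without the 2 arrays farthest from the median eggshell level. Within the 12 arrays of the first array series r was -0.54, within the 6 of the second -0.43, and after subtraction of group means -0.51. For TFIID the pooled r was -0.47, rho was -0.52 and r without 2 arrays was also -0.47, with -0.58 and -0.49 within the series. With the muscle mean the Mediator median had r of -0.52 and rho of -0.61, -0.55 without 2 arrays, and -0.45 and -0.84 within the series. These were among 8 relations computed, none of which passed 0.05 in a permutation test after adjustment over the 8, so they are given as a description. Arrays of a group share a genotype and temperature.

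**Figure D5:**
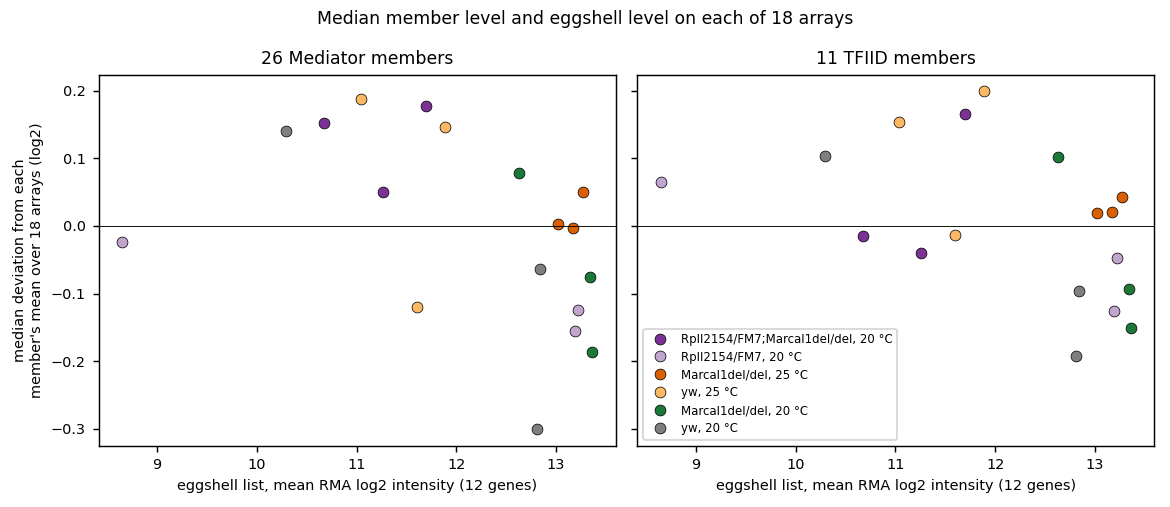
Median deviation of the 26 Mediator genes and of the 11 TFIID genes from their means over 18 arrays (vertical axes, log2), against the mean RMA log2 intensity of 12 eggshell genes (horizontal axis), 1 point per array coloured by group. The Pearson r is -0.47 in both panels, and the lowest eggshell mean, 8.65, is that of RpII2154/FM7 replicate 3.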

How the data were processed

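Values are the deposited series table of log2 expression values. Per the submitters' processing notes, the authors made them with RMA, whose version is not given in the sources used here. Of 18952 probe sets, 183 controls were set aside and 18769 tested without a filter. Gene names came from the platform annotation, updated through gene identifiers to Release 6 of the NCBI annotation, with 13647 sets naming 1 gene, 402 several and 4720 none. Groups follow the sample titles. The genotype field of 2 RpII2154/FM7 arrays names FM8 and FM9, and the titles were followed.

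Group means were fitted to all 18 arrays with limma 3.58.1 in R 4.3.3 (residual df 12, prior df 3.85), with 2-sided tests and Benjamini-Hochberg adjustment within each of 9 contrasts. The code was tested on simulated data. Replicates were stated to be biologically independent. The members, lists and tests were chosen with earlier results of these data known. Values on every array are given for called members, the kinase module, Tbp, Taf1, Taf10 and Taf10b, and for the 2 members of lowest p where none was called. Equal replicate numbers did not pair the arrays, as the correlation of deviations from group means showed.

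Alternatives were a fit to the groups compared only, a filter on low values, a variance trend, a replicate block, the other probe set of a gene, median centring, leaving out arrays, and an eggshell covariate added later.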

Additional observations from a re-analysis of the deposited data

How the results depend on the processing

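Over 9 counts of called members, 18 medians and 4 called members, no alternative reversed a called member. Fitting the compared groups alone took each call away, leaving 0 members called for Marcal1del/del over yw at 20 °C (Taf7, adjusted p = 0.233 in limma), for RpII2154/FM7;Marcal1del/del over RpII2154/FM7 (MED15, 0.115) and over Marcal1del/del (Taf6, 0.0915), and for yw at 25 over 20 °C (Taf7, 0.147). These fits have fewer arrays to estimate the spread. For Marcal1del/del over yw at 20 °C the count was also 0 with the variance trend (Taf7, adjusted p = 0.0544 in limma), with median centring (0.0731) and with the eggshell covariate chosen after seeing the data (0.0788), and the cause was not tested. For RpII2154/FM7;Marcal1del/del over Marcal1del/del the count was 3 with the filter on low values (Taf6, Taf5, MED15), 2 with the variance trend (Taf6, Taf5), 2 with median centring (Taf6, MED15), 3 without the 3 arrays that stood apart and 0 with the eggshell covariate (Taf6, adjusted p = 0.164 in limma). For RpII2154/FM7 over yw it was 1, Tbp, with the filter, which leaves fewer probe sets to adjust over. Over all 18769 probe sets the main fit called 221 for Marcal1del/del over yw at 20 °C, against 217 with the trend and 215 with the covariate. For RpII2154/FM7;Marcal1del/del over Marcal1del/del it called 722, against 745 with the trend, 1271 without the 3 arrays and 317 with the covariate. Such counts were not taken for the filter, median centring, the compared groups alone or single arrays left out.

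Without the 3 arrays that stood apart, 5 members were called for yw at 25 over 20 °C, beside 788 of all probe sets in place of 48. The TFIID median was then 0.15 for Marcal1del/del over yw at 20 °C and 0.26 for RpII2154/FM7 over yw. The Mediator median was 0.40 for yw at 25 over 20 °C and -0.30 for the difference of temperature effects.

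On average over all groups, replicate numbers did not pair the arrays. Pairing within 1 comparison was not tested, and single pairs of 1 number correlated by -0.39 to 0.51, against -0.50 to 0.45 for other pairs. Deviations of arrays of 1 number correlated by -0.03 on average (45 pairs), against 0.01 for other pairs, and 5 of 18 arrays correlated best with their own number. With the replicate block the count for Marcal1del/del over yw at 20 °C was 0 (Taf7, 0.66, adjusted p = 0.078 in limma), and no other call was lost, with Taf6 at the threshold (adjusted p = 0.05). Over all probe sets the block gave 196 calls in place of 221 for the Taf7 comparison, and 604 in place of 722 for the Taf6 comparison.

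Leaving out 1 array in turn gave counts of 0 to 1 for Marcal1del/del over yw at 20 °C and 0 to 0 for RpII2154/FM7;Marcal1del/del over RpII2154/FM7. The counts were 0 to 1 for RpII2154/FM7 over yw and 0 to 3 for RpII2154/FM7;Marcal1del/del over Marcal1del/del. Counts over all probe sets were not taken in these fits, so no share stands beside them. TFIID medians ranged from -0.058 to 0.15 for Marcal1del/del over yw at 20 °C, 0.025 to 0.18 for the difference of Marcal1del/del effects and 0.023 to 0.27 for RpII2154/FM7 over yw, and the Mediator median from 0.080 to 0.34 for yw at 25 over 20 °C.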
